A study of Mus musculus with 9 samples.

Results

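Glycolysis and hypoxia response genes are 36 genes that carry out or regulate the breakdown of glucose to lactate, or that are known to respond to low oxygen. They were picked by symbol for their known roles, with earlier results of these data known, and no measured value enters the rule. In the deposited table the 36 symbols cover 37 of 52550 genes, because Aldoa is listed under 2 identifiers, and all 37 passed the filter on low counts in every comparison.

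Total RNA came from epidermal sheets of mouse ears, peeled from the dermis with dispase and sequenced in 3 groups of 3 libraries. The mice were male wild-type C57BL/6 animals of 8 weeks, of the substrain C57BL/6J per the study's methods. VAS + H2O mice received Vaseline on the ears for 5 days and water by gavage for 10 days. IMQ + H2O mice received imiquimod cream, an agonist of Toll-like receptor 7 that induces psoriasis-like dermatitis, with the same water gavage. IMQ + XYF mice received the same imiquimod and 23.3 mg/g Xiao-Yin-Fang decoction, a traditional Chinese herbal formula, in place of water. All 3 groups were therefore gavaged and had cream on the ears, and both IMQ groups shared imiquimod. The study's methods say that RNA was prepared from ear sheets of 2 mice, and its figure legends give n = 3 for each group. The sources used here do not say whether each library held RNA of 2 mice. The p-values therefore measure the spread between libraries, which may be partly technical. A sheet holds several cell types, so that fewer cells of a type and less RNA per cell cannot be told apart.

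In glycolysis, glucose enters the cell through GLUT transporters, is phosphorylated by hexokinase and is split and oxidized to pyruvate in the cytoplasm. Lactate dehydrogenase turns pyruvate into lactate, which leaves through monocarboxylate transporters. Hypoxia-inducible factor (HIF) is a transcription factor whose alpha subunit is hydroxylated by prolyl hydroxylases when oxygen is present and is then degraded. At low oxygen HIF binds a short DNA core, ACGTG or GCGTG, and many of the genes described here are known HIF targets. Keratinocytes are known for a high rate of glycolysis even with oxygen at hand, and psoriatic epidermis for thickening and rapid division.

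Total counts per library ranged from 30298275 to 64771160. All 12 keratinocyte markers were detected in each group, with a summed level of 52341 to 76217 CPM (counts scaled to library size and normalized by the TMM method). Libraries stood apart in 2 ways. The 10 neutrophil and monocyte markers summed to 235 CPM in IMQ + H2O replicate 3 and 158 CPM in IMQ + XYF replicate 1, to 63.7 to 93.1 CPM in the other 4 IMQ libraries and to 26.6 to 30.3 CPM in VAS + H2O. Of these markers, Csf3r stood at 38.0 and 22.9 CPM in the former pair of libraries and at 0 to 6.10 CPM in the other 7, and Ly6g at 0.509 and 0.252 CPM against 0 to 0.0855 CPM. Cxcr2, the largest part of the sum in every IMQ library, went otherwise. It stood at 10.6 to 12.6 CPM in VAS + H2O, 49.2, 50.4 and 80.7 CPM in IMQ + H2O and 56.1, 60.9 and 54.3 CPM in IMQ + XYF. It did not set IMQ + XYF replicate 1 apart, and Mpo stood at 0 CPM in the former pair. VAS + H2O replicate 2 carried 14 skeletal muscle markers at 396 CPM, against 9.77 and 11.4 CPM in the other VAS + H2O libraries and 6.57 to 113 CPM in the IMQ libraries. Carryover markers also moved with the groups. The 12 cartilage markers summed to 333 to 732 CPM in VAS + H2O, 64.0 to 123 CPM in IMQ + H2O and 209 to 333 CPM in IMQ + XYF, and the 12 dermal fibroblast markers to 257 to 1166, 92.3 to 126 and 198 to 420.1 CPM. The 10 hair follicle and sebaceous markers summed to 3017 to 5518 CPM in VAS + H2O, 2096 to 2568 CPM in IMQ + H2O and 2501 to 2851 CPM in IMQ + XYF, so that both imiquimod groups lay below VAS + H2O. The 10 proliferation markers summed to 177 to 517 CPM in VAS + H2O, 639 to 939 CPM in IMQ + H2O and 810.3 to 1073 CPM in IMQ + XYF. The part of these lists in the results below was not tested beyond the values given beside them.

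The HIF core was searched in the promoter windows that RefSeq annotates for these genes on GRCm38.p6, from 250 bases before to 50 bases after each transcription start. Of the 36 genes, 34 have a window, and Ndrg1 and Slc2a3 have none. The letters ACGTG or GCGTG, on either strand, occurred in 39 of 48 windows (81.2%), against 43.8% of the 32851 windows in the table. The median GC content of the windows was 62.2%, against 52.7% for all windows. A match is a description of letters and not a binding site. The 150 bases before the start are shown for 4 genes because each holds the letters while their transcripts, described below, were not alike. Ldha has a second annotated start, whose 150 bases hold 1 match and are not shown. Pgk1 and Ldha rose in imiquimod-treated epidermis, whereas P4ha1 and Bnip3 did not pass the test. Capitals mark every match, a palindromic CACGTG counting once on each strand. None of the stretches overlapped an annotated exon except that of Bnip3, by 13 bases.
Pgk1, chrX:106186950-106187099, plus strand, 2 matches: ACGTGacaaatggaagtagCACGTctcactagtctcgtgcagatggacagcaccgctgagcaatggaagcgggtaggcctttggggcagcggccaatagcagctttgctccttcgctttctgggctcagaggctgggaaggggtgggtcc
Ldha, chr7:46845654-46845803, plus strand, 5 matches: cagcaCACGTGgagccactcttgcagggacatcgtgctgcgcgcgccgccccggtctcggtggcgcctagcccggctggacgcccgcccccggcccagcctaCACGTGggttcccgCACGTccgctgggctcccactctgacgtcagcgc
P4ha1, chr10:59323146-59323295, plus strand, 2 matches: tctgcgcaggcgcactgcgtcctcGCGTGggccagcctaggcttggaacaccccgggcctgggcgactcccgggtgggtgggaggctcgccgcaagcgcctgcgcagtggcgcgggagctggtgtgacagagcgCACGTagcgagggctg
Bnip3, chr7:138909507-138909656, minus strand, 5 matches: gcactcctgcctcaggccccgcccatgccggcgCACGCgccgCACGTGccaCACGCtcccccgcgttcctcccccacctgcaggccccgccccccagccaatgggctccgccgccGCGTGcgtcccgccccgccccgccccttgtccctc
Among genes with a window, 18 of 21 that rose with imiquimod had a match, and so did 13 of the 13 others. Over all 27025 symbols with a window, 46.7% had a match in any of their windows.

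The first comparison, IMQ + H2O against VAS + H2O, asked how the genes responded to imiquimod. Of the 37 rows, 21 rose (adjusted p of at most 0.05 by the quasi-likelihood test of edgeR), 1 fell and 15 did not pass. Over all 18009 genes tested, 22.1% changed, 12.7% upwards and 9.41% downwards. With the study's further threshold, a change of at least 1 on the log2 scale, 14 were differentially expressed genes (DEG), all higher, against 3.64% of all genes. The median log2 fold change was 0.78 over the 37 rows and -0.03 over all genes. The groups did not overlap, with IMQ + H2O higher, for 21 rows, against 23.4% of all genes.

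The enzymes of lower glycolysis, from triose phosphate to pyruvate, rose without exception. All 6 of Tpi1, Gapdh, Pgk1, Pgam1, Eno1 and Pkm passed, with log2 fold changes of 0.95 to 1.47. Pgk1 (phosphoglycerate kinase, which makes the first ATP of the pathway, chrX:106187100-106203699) stood at 72.8, 61.4 and 74.5 CPM in VAS + H2O, 197, 156 and 229 CPM in IMQ + H2O and 215, 203 and 193 CPM in IMQ + XYF. Every imiquimod-treated library lay above every Vaseline library (log2 fold change 1.47, SE 0.15, adjusted p = 0.00575 for IMQ + H2O against VAS + H2O). Eno1, the enolase that forms phosphoenolpyruvate, stood at 163, 151 and 164 CPM in VAS + H2O, 394, 326 and 429 CPM in IMQ + H2O and 381, 343 and 344 CPM in IMQ + XYF. It had the smallest adjusted p of the 36 genes in this comparison (log2 fold change 1.25, SE 0.12, adjusted p = 0.00395). Gapdh, the dehydrogenase that is often used as a reference transcript, stood at 335, 328 and 371 CPM in VAS + H2O, 774, 723 and 1056 CPM in IMQ + H2O and 919, 792 and 749 CPM in IMQ + XYF. It rose by more than 2-fold (log2 fold change 1.29, SE 0.16, adjusted p = 0.00688) and was therefore not a constant reference between these groups.

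Pkm, pyruvate kinase, stood at 519, 528 and 590.3 CPM in VAS + H2O, 1212, 1016 and 1294 CPM in IMQ + H2O and 1146, 1130.0 and 1029.9 CPM in IMQ + XYF. It rose (log2 fold change 1.09, SE 0.12, adjusted p = 0.00575), and the table does not separate its splice forms. Pgam1, phosphoglycerate mutase, stood at 64.8, 64.2 and 79.05 CPM in VAS + H2O, 169, 147 and 200.4 CPM in IMQ + H2O and 173, 164 and 164 CPM in IMQ + XYF. Tpi1, triosephosphate isomerase, stood at 112, 98.02 and 121 CPM in VAS + H2O, 211, 196 and 238 CPM in IMQ + H2O and 222, 188 and 205 CPM in IMQ + XYF. Both rose without overlap (Pgam1 log2 fold change 1.30, SE 0.14, adjusted p = 0.00575; Tpi1 log2 fold change 0.95, SE 0.11, adjusted p = 0.00629). Processed copies of these genes share sequence with them. Pgam1-ps2 held 14231 counts over the 9 libraries against 49235 for Pgam1, and Pgk1-rs7 held 4979 against 56654 for Pgk1. Eno1b held 3291 counts in IMQ + XYF replicate 1 and 0 in the other 8 libraries, beside 24218 Eno1 counts in that library. How the counting divided shared reads is not given in the sources used here, so the levels of Pgk1, Pgam1 and Eno1 are uncertain to that extent.

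**Figure D1:**
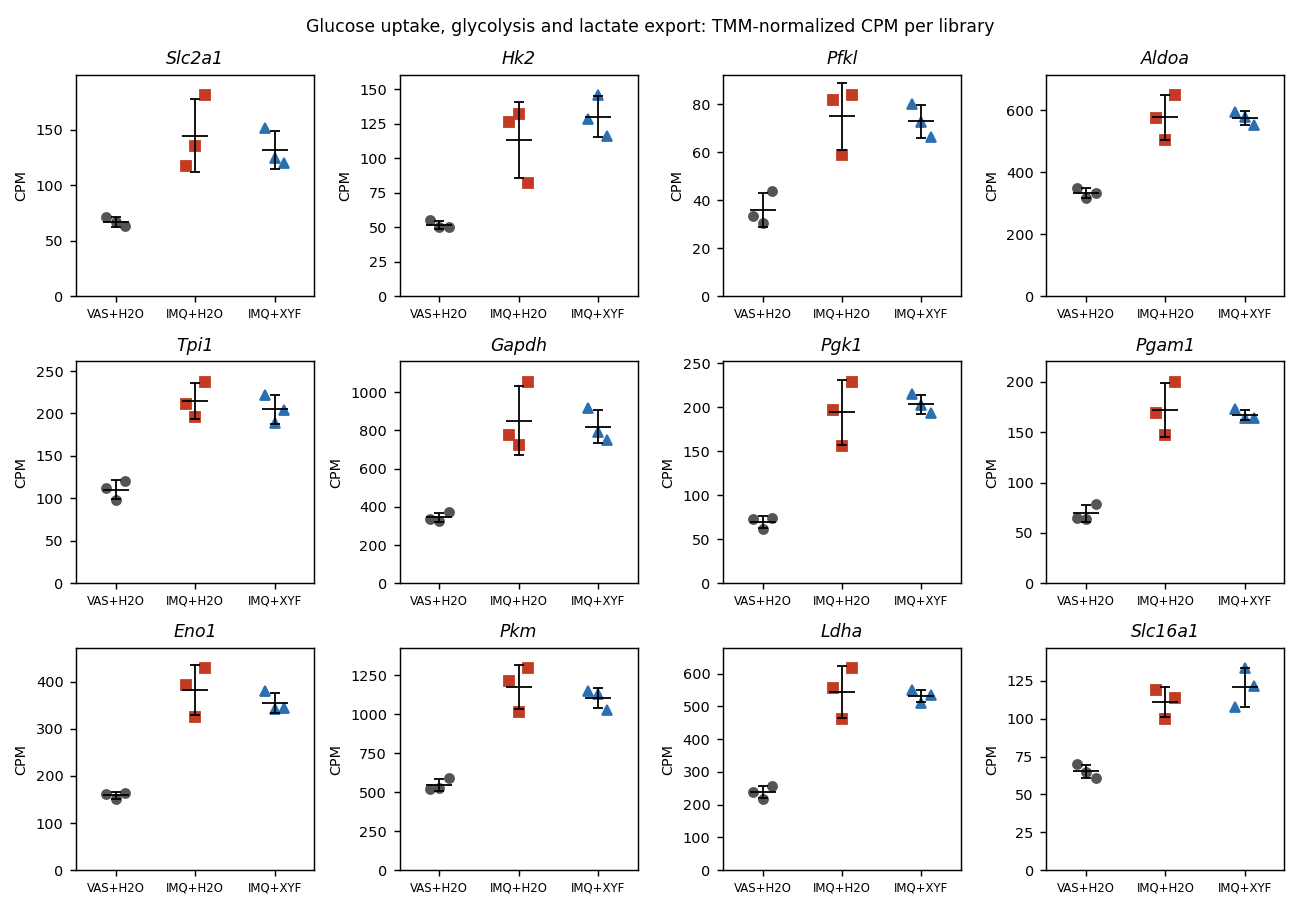
TMM-normalized CPM of 12 genes of glucose uptake, glycolysis and lactate export in each of the 9 libraries, on axes that start at 0. Points are libraries, and bars give the mean and SD of 3 libraries. All imiquimod-treated libraries, with water or XYF, lie above all Vaseline libraries in every panel, and the 2 imiquimod groups overlap in every panel.

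Per kilobase of exon, which allows levels to be set beside each other between genes, the most abundant transcripts in VAS + H2O were Aldoa (mean 114 CPM per kb), Pkm (109), Gapdh (83.4) and Ldha (72.0). In IMQ + H2O the order at the top was Pkm (235), Gapdh (206), Aldoa (198) and Ldha (164). The 16 enzymes from hexokinase to lactate dehydrogenase together held 0.273%, 0.256% and 0.285% of normalized counts in VAS + H2O. They held 0.522%, 0.464% and 0.575% in IMQ + H2O and 0.532%, 0.502% and 0.483% in IMQ + XYF. Their summed share was 0.271% ± 0.0146 (SD, n = 3), 0.520% ± 0.0556 and 0.506% ± 0.0249 respectively.

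Upstream of these steps, not every isoform passed, and a difference between isoforms was not tested. Of the 9 rows of upper glycolysis, 4 rose, 1 fell and 4 did not pass. Slc2a1, which encodes the ubiquitous glucose transporter GLUT1, stood at 71.7, 66.8 and 62.96 CPM in VAS + H2O, 117, 135 and 182 CPM in IMQ + H2O and 151, 124 and 120.1 CPM in IMQ + XYF. It rose (log2 fold change 1.09, SE 0.16, adjusted p = 0.00991). Hk2, the inducible hexokinase, stood at 55.1, 49.9 and 50.3 CPM in VAS + H2O, 126, 132 and 82.1 CPM in IMQ + H2O and 129, 146 and 116 CPM in IMQ + XYF. It rose in all 3 IMQ + H2O libraries, with replicate 3 the lowest of them (log2 fold change 1.12, SE 0.18, adjusted p = 0.0112). Hk1, the constitutive hexokinase, stood at 199.6, 137 and 155 CPM in VAS + H2O, 190.3, 259.5 and 139 CPM in IMQ + H2O and 224, 188 and 213 CPM in IMQ + XYF. The groups overlapped and Hk1 did not pass (log2 fold change 0.25, SE 0.24, adjusted p = 0.485).

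Phosphofructokinase, which commits glucose to glycolysis, is built from 3 kinds of subunit. Pfkl, the liver-type subunit, stood at 33.4, 30.5 and 43.9 CPM in VAS + H2O, 82.00, 58.99 and 84.1 CPM in IMQ + H2O and 80.1, 72.5 and 66.3 CPM in IMQ + XYF and rose (log2 fold change 1.05, SE 0.19, adjusted p = 0.0135). Pfkm, the muscle-type subunit, stood at 31.9, 42.95 and 31.03 CPM in VAS + H2O, 20.7, 23.8 and 17.5 CPM in IMQ + H2O and 21.9, 25.4 and 20.9 CPM in IMQ + XYF. It was the only one of the 36 genes that fell (log2 fold change -0.79, SE 0.18, adjusted p = 0.024). Its highest level was in VAS + H2O replicate 2, the library with the skeletal muscle markers, and without that library it did not pass (log2 fold change -0.62, adjusted p = 0.0625). Leaving out VAS + H2O replicate 1, IMQ + H2O replicate 1 or IMQ + H2O replicate 3 also ended the call (adjusted p = 0.0509, 0.0735 and 0.0651). Pfkp, the platelet-type subunit and the most abundant of the 3 per kilobase in each group, stood at 215, 203 and 248 CPM in VAS + H2O, 256, 231 and 236 CPM in IMQ + H2O and 228, 229 and 220.4 CPM in IMQ + XYF and did not pass (log2 fold change 0.10, SE 0.10, adjusted p = 0.468).

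Gpi1, which interconverts glucose and fructose phosphates, stood at 276, 267 and 276 CPM in VAS + H2O, 383, 346 and 433 CPM in IMQ + H2O and 378, 381 and 363 CPM in IMQ + XYF. It rose by a small amount (log2 fold change 0.49, SE 0.10, adjusted p = 0.0184), and without VAS + H2O replicate 1 or 2 its adjusted p was 0.0583 and 0.0611. Aldoa, the main aldolase, stood at 349, 316 and 333 CPM in VAS + H2O, 577, 504 and 650.2 CPM in IMQ + H2O and 595, 577 and 552 CPM in IMQ + XYF and rose (log2 fold change 0.78, SE 0.11, adjusted p = 0.00881). Its second identifier, an overlapping locus with 2 to 32 counts per library, did not pass. Aldoc, a second aldolase, stood at 30.9, 25.8 and 23.9 CPM in VAS + H2O, 32.8, 27.8 and 20.4 CPM in IMQ + H2O and 29.00, 24.6 and 22.7 CPM in IMQ + XYF and did not pass (log2 fold change -0.01, SE 0.19, adjusted p = 0.978).

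Related genes can be compared within a library, where the scaling between libraries drops out. The log2 ratio of Hk2 to Hk1 counts was -1.86, -1.45 and -1.62 in VAS + H2O and -0.59, -0.97 and -0.76 in IMQ + H2O. That of Ldhb to Ldha was -2.79, -2.60 and -3.17 against -3.95, -3.85 and -4.44. Pfkp to Pfkl went from 2.68, 2.74 and 2.501 to 1.64, 1.97 and 1.49, and Pfkm to Pfkl from -0.06, 0.50 and -0.50 to -1.99, -1.31 and -2.27. For these 4 pairs, for Aldoc to Aldoa and for Slc16a3 to Slc16a1, the VAS + H2O and IMQ + H2O libraries did not overlap. They overlapped for the other pairs compared, namely Slc2a3 to Slc2a1, Pfkfb4 to Pfkfb3, Egln3 to Egln1, Car12 to Car9 and P4ha2 to P4ha1. The share of such pairs among other genes was not computed. In IMQ + XYF the Hk2 to Hk1 ratio was -0.80, -0.36 and -0.87 and the Ldhb to Ldha ratio -4.03, -3.67 and -3.92, both overlapping the IMQ + H2O values. The P4ha2 to P4ha1 ratio did not overlap, at -0.93, -1.05 and -1.08 in IMQ + XYF and -0.82, -0.66 and -0.82 in IMQ + H2O. In VAS + H2O it was -0.52, -0.37 and -0.76. Among all the pairs compared, it was the only one in which the IMQ + XYF and IMQ + H2O libraries did not overlap. With 3 libraries per group, 1 such pair among those compared is not read as an effect of XYF. The ratios show unequal change of the paired genes and carry no test.

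**Figure D2:**
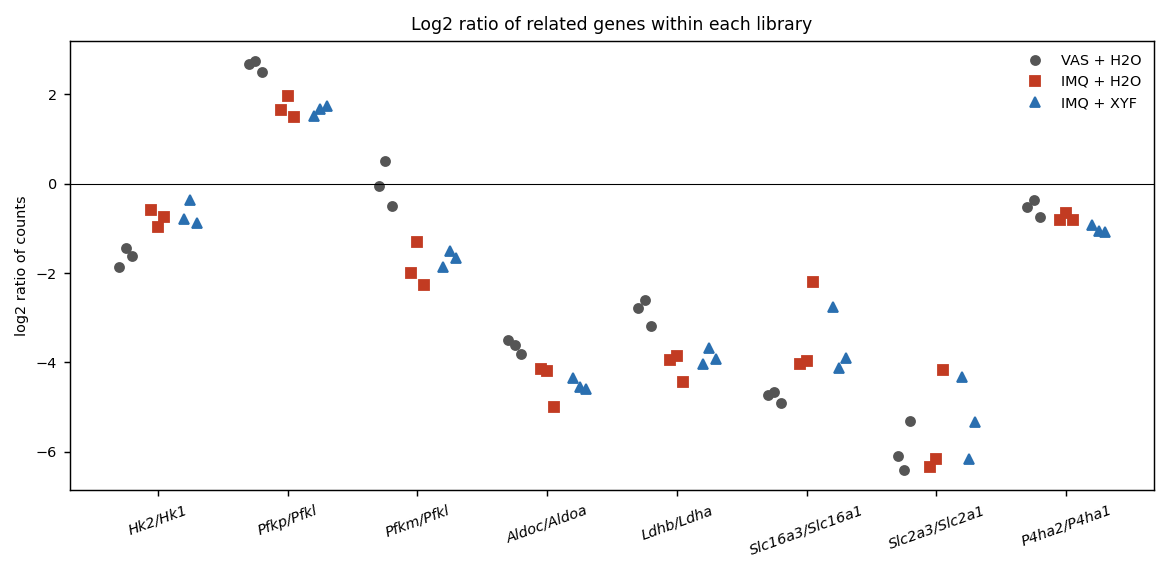
Log2 ratio of counts of related genes within each of the 9 libraries, with the gene pairs along the horizontal axis and 1 point per library. The imiquimod-treated libraries lie above the Vaseline libraries for Hk2/Hk1 and Slc16a3/Slc16a1 and below them for Pfkp/Pfkl, Pfkm/Pfkl, Aldoc/Aldoa and Ldhb/Ldha. For P4ha2/P4ha1, the only pair shown in which the imiquimod groups do not overlap, the IMQ + XYF libraries lie below the IMQ + H2O libraries.

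At the pyruvate branch, the genes of lactate formation and export rose. Ldha, the subunit of lactate dehydrogenase that favours lactate, stood at 239, 219 and 258 CPM in VAS + H2O, 556, 460.5 and 616 CPM in IMQ + H2O and 549, 512 and 535 CPM in IMQ + XYF. It rose without overlap (log2 fold change 1.18, SE 0.13, adjusted p = 0.00575). Ldhb, the subunit that favours pyruvate, stood at 34.5, 36.1 and 28.6 CPM in VAS + H2O, 36.04, 32.02 and 28.5 CPM in IMQ + H2O and 33.6, 40.1 and 35.4 CPM in IMQ + XYF and did not pass (log2 fold change -0.05, SE 0.13, adjusted p = 0.8). Slc16a1, which encodes the monocarboxylate transporter MCT1, stood at 69.9, 64.4 and 61.01 CPM in VAS + H2O, 119, 99.8 and 114 CPM in IMQ + H2O and 108, 133 and 122 CPM in IMQ + XYF and rose (log2 fold change 0.75, SE 0.10, adjusted p = 0.00779). Pdk1, the kinase that inhibits pyruvate dehydrogenase and is itself a HIF target, stood at 104, 95.2 and 89.1 CPM in VAS + H2O, 85.5, 87.99 and 71.8 CPM in IMQ + H2O and 79.9, 67.7 and 75.4 CPM in IMQ + XYF. All IMQ + H2O libraries lay below all VAS + H2O libraries, as for 21.6% of all genes, and Pdk1 did not pass (log2 fold change -0.25, SE 0.11, adjusted p = 0.134).

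Slc16a3, which encodes the lactate exporter MCT4 (chr11:120948480-120960868), had the largest log2 fold change of the 36 genes. It stood at 2.64, 2.55 and 2.04 CPM in VAS + H2O, 7.33, 6.42 and 24.7 CPM in IMQ + H2O and 15.9, 7.59 and 8.21 CPM in IMQ + XYF and rose (log2 fold change 2.40, SE 0.55, adjusted p = 0.0256). Its highest levels were in the pair of libraries with the most neutrophil and monocyte markers. Without IMQ + H2O replicate 3 the log2 fold change was 1.496 and still passed (adjusted p = 0.0158), whereas without any 1 of the VAS + H2O libraries the adjusted p was 0.0746, 0.0794 and 0.0689. Slc2a3, which encodes the high-affinity glucose transporter GLUT3, stood at 1.06, 0.789 and 1.58 CPM in VAS + H2O, 1.45, 1.90 and 10.03 CPM in IMQ + H2O and 7.50, 1.73 and 2.96 CPM in IMQ + XYF. The groups overlapped and it did not pass with edgeR (log2 fold change 1.96, SE 0.77, adjusted p = 0.111), whereas it did with DESeq2 (log2 fold change 1.99, SE 0.69, adjusted p = 0.0182). The same libraries were highest, and without IMQ + H2O replicate 3 its log2 fold change was 0.54 (adjusted p = 0.368). The part of neutrophils and monocytes in the levels of Slc16a3 and Slc2a3 was not tested.

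**Figure D3:**
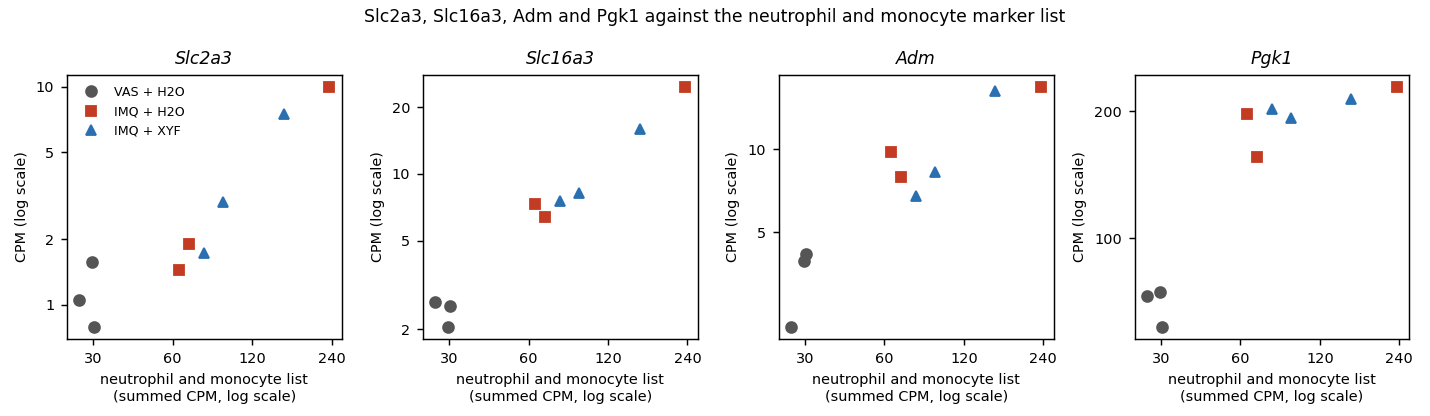
CPM of Slc2a3, Slc16a3, Adm and Pgk1 against the summed CPM of 10 neutrophil and monocyte markers, both on log scales, with 1 point per library. IMQ + H2O replicate 3 and IMQ + XYF replicate 1, at 235 and 158 CPM of markers, are the 2 highest libraries for Slc2a3, Slc16a3, Adm and Pgk1. Pgk1 is above 150 CPM in all imiquimod-treated libraries.

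The bifunctional regulators of phosphofructokinase, Pfkfb3 and Pfkfb4, did not pass with edgeR. Pfkfb3 stood at 12.8, 21.3 and 10.8 CPM in VAS + H2O, 11.5, 9.49 and 12.5 CPM in IMQ + H2O and 11.3, 6.63 and 13.7 CPM in IMQ + XYF (log2 fold change -0.44, SE 0.27, adjusted p = 0.281), with its highest level in VAS + H2O replicate 2. Pfkfb4 stood at 9.10, 7.86 and 13.2 CPM in VAS + H2O, 22.98, 11.5 and 19.7 CPM in IMQ + H2O and 10.97, 23.04 and 11.7 CPM in IMQ + XYF (log2 fold change 0.83, SE 0.30, adjusted p = 0.0897). Pfkfb4 passed with DESeq2 (log2 fold change 0.85, SE 0.30, adjusted p = 0.0222), and with edgeR without IMQ + H2O replicate 2, the lowest of its group (log2 fold change 1.11, adjusted p = 0.0354).

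All 3 genes of HIF and its oxygen sensors rose. Hif1a, the HIF-1 alpha subunit (chr12:73901375-73947530), stood at 93.1, 103 and 122 CPM in VAS + H2O, 194, 219 and 331 CPM in IMQ + H2O and 264, 242 and 242 CPM in IMQ + XYF. It rose (log2 fold change 1.21, SE 0.21, adjusted p = 0.0137), although without VAS + H2O replicate 2 its adjusted p was 0.0506. HIF-1 alpha is controlled largely through protein stability, which these data do not measure. Egln1, which encodes the prolyl hydroxylase PHD2, stood at 57.3, 50.8 and 48.2 CPM in VAS + H2O, 86.3, 82.3 and 80.2 CPM in IMQ + H2O and 77.5, 76.3 and 69.1 CPM in IMQ + XYF and rose (log2 fold change 0.66, SE 0.09, adjusted p = 0.00832). Egln3, which encodes PHD3 and is itself induced by HIF, stood at 50.4, 34.6 and 44.1 CPM in VAS + H2O, 79.1, 71.3 and 56.7 CPM in IMQ + H2O and 63.00, 61.4 and 59.2 CPM in IMQ + XYF and rose (log2 fold change 0.67, SE 0.17, adjusted p = 0.0345). The Egln3 call was lost without VAS + H2O replicate 2 or 3 or IMQ + H2O replicate 1 or 2 (adjusted p = 0.0925, 0.0707, 0.0875 and 0.0746).

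The 10 hypoxia targets outside glycolysis were divided, with 4 that rose and 6 that did not pass. Vegfa, the angiogenic growth factor, stood at 12.4, 15.4 and 10.9 CPM in VAS + H2O, 29.9, 25.2 and 34.9 CPM in IMQ + H2O and 32.4, 28.2 and 24.5 CPM in IMQ + XYF and rose (log2 fold change 1.20, SE 0.18, adjusted p = 0.00994). Adm, the vasodilator peptide adrenomedullin, stood at 2.26, 4.16 and 3.93 CPM in VAS + H2O, 9.74, 7.91 and 16.8 CPM in IMQ + H2O and 16.2, 6.75 and 8.24 CPM in IMQ + XYF. It rose (log2 fold change 1.73, SE 0.36, adjusted p = 0.02), with its highest levels in the libraries richest in neutrophil and monocyte markers. Without IMQ + H2O replicate 3 its log2 fold change was 1.34 (adjusted p = 0.0435), and without VAS + H2O replicate 1 or 2 its adjusted p was 0.0561 and 0.0521.

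Both carbonic anhydrases, cell-surface enzymes that help to dispose of acid, also rose. Car9 stood at 0.698, 1.002 and 0.516 CPM in VAS + H2O, 2.87, 1.79 and 2.45 CPM in IMQ + H2O and 2.55, 1.85 and 2.54 CPM in IMQ + XYF, low levels of 18 to 162 counts per library (log2 fold change 1.66, SE 0.33, adjusted p = 0.0184). Without VAS + H2O replicate 1, IMQ + H2O replicate 1 or IMQ + H2O replicate 3 its adjusted p was 0.0625, 0.0513 and 0.0503. Car12 was far more abundant, at 108, 72.3 and 112 CPM in VAS + H2O, 220.4, 161 and 181 CPM in IMQ + H2O and 151, 225 and 146 CPM in IMQ + XYF, and rose (log2 fold change 0.93, SE 0.19, adjusted p = 0.0184).

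The other 6 targets did not pass with edgeR. P4ha1, a collagen prolyl hydroxylase, stood at 22.8, 23.2 and 25.4 CPM in VAS + H2O, 22.98, 24.2 and 24.1 CPM in IMQ + H2O and 28.2, 23.7 and 20.9 CPM in IMQ + XYF (log2 fold change -0.01, SE 0.09, adjusted p = 0.927). Ndrg1, a gene of stress and differentiation, stood at 122, 122 and 112 CPM in VAS + H2O, 115, 128 and 119.6 CPM in IMQ + H2O and 119, 99.2 and 99.4 CPM in IMQ + XYF (log2 fold change 0.01, SE 0.08, adjusted p = 0.921). For these genes the 95% interval of the log2 fold change, -0.23 to 0.20 for P4ha1 and -0.18 to 0.20 for Ndrg1, leaves no room for a change of the size seen for Pgk1 or Ldha. P4ha2 stood at 15.8, 17.9 and 15.03 CPM in VAS + H2O, 12.99, 15.3 and 13.7 CPM in IMQ + H2O and 14.8, 11.4 and 9.89 CPM in IMQ + XYF (log2 fold change -0.23, SE 0.13, adjusted p = 0.235). Ankrd37, an ankyrin repeat protein, stood at 2.45, 1.37 and 1.58 CPM in VAS + H2O, 2.28, 2.81 and 2.62 CPM in IMQ + H2O and 2.03, 1.79 and 2.68 CPM in IMQ + XYF (log2 fold change 0.50, SE 0.27, adjusted p = 0.229).

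Bnip3, which promotes removal of mitochondria, stood at 19.1, 25.4 and 15.03 CPM in VAS + H2O, 16.7, 12.4 and 12.6 CPM in IMQ + H2O and 19.3, 13.8 and 12.6 CPM in IMQ + XYF (log2 fold change -0.53, SE 0.22, adjusted p = 0.132). Ddit4, an inhibitor of mTORC1 that stress induces, stood at 28.2, 64.5 and 36.02 CPM in VAS + H2O, 30.8, 22.9 and 20.98 CPM in IMQ + H2O and 24.2, 19.1 and 21.1 CPM in IMQ + XYF (log2 fold change -0.80, SE 0.32, adjusted p = 0.117). Both had negative log2 fold changes, the groups overlapped, and both were highest in VAS + H2O replicate 2. With DESeq2, which called 26.1% of all genes in this comparison, Ddit4 passed (log2 fold change -0.79, SE 0.30, adjusted p = 0.0359). The other 5 targets, among them the widely used hypoxia markers Bnip3 and Ndrg1, did not pass with edgeR or DESeq2.

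**Figure D4:**
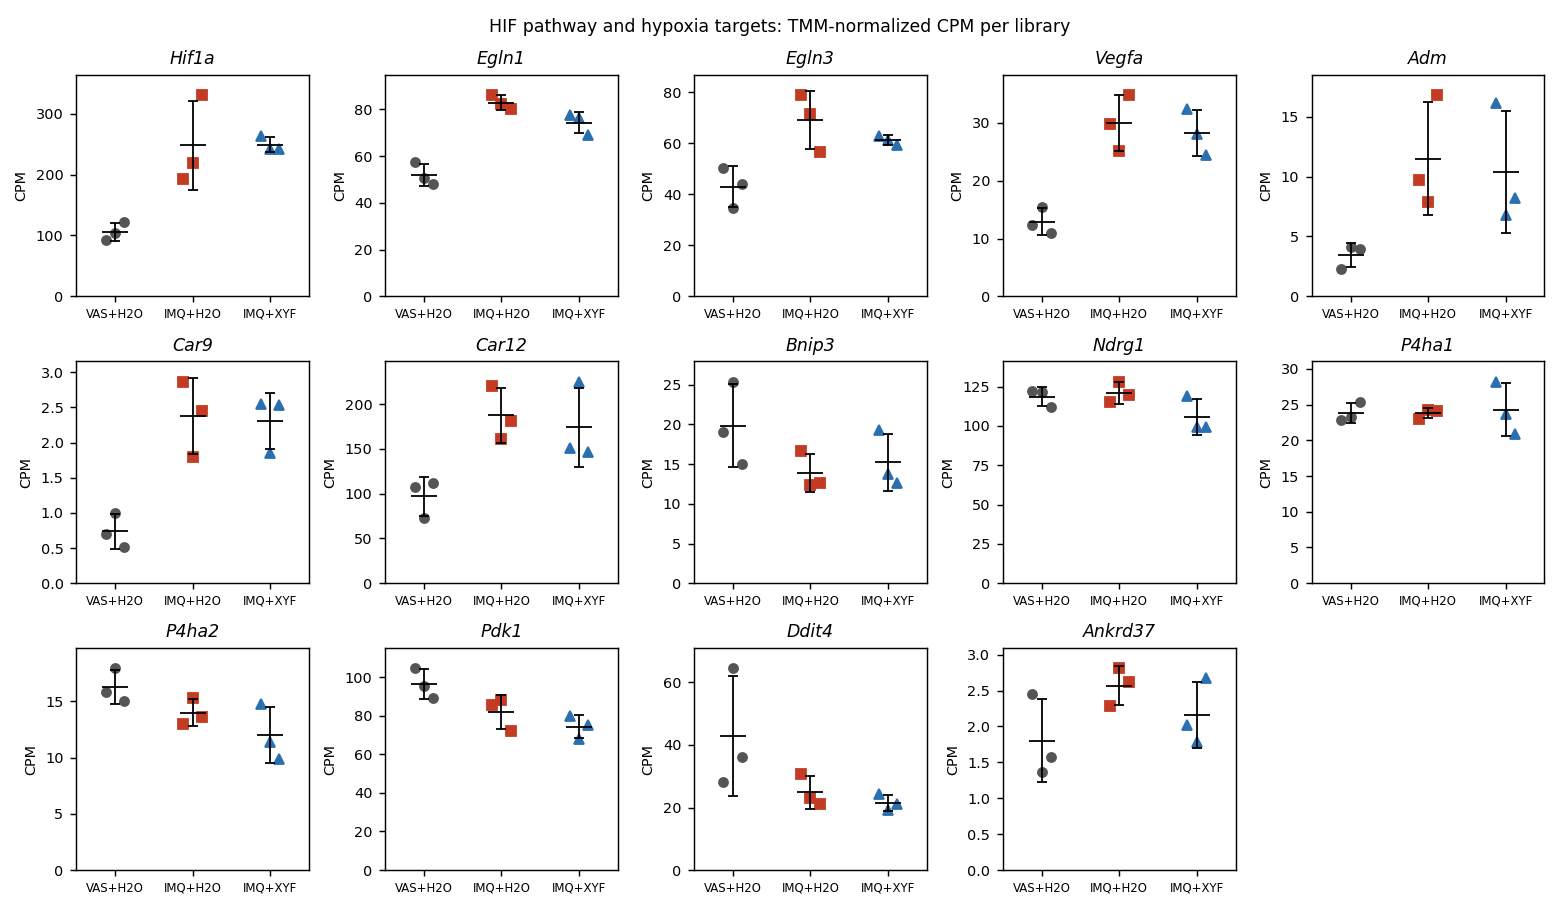
TMM-normalized CPM of 14 genes of the HIF pathway and its targets in each of the 9 libraries, on axes that start at 0, with points for libraries and bars for the mean and SD of 3 libraries. Hif1a, Egln1, Egln3, Vegfa, Adm, Car9 and Car12 lie higher in all imiquimod-treated than in all Vaseline libraries, whereas Bnip3, Ndrg1, P4ha1 and Ankrd37 overlap the Vaseline libraries in both imiquimod groups.

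Of the 22 calls, 15 passed in each of the 6 fits with 1 library left out, and the others were those of Adm, Car9, Egln3, Gpi1, Hif1a, Pfkm and Slc16a3. With the cartilage and dermal fibroblast markers as a covariate, 0 of all genes tested passed. All 22 genes kept their direction in that fit, with a median log2 fold change of 1.02, and 15 of the 37 rows had an unadjusted p under 0.05. The log2 fold change was 1.05 for Pkm, 1.13 for Eno1, 0.98 for Ldha and 1.16 for Pgk1, with larger standard errors (0.26, 0.25, 0.27 and 0.31), and it was smaller for Car12 (0.34) and Pfkm (-0.20). Some genes that were not called changed sign in that fit. Ddit4 (0.62), Bnip3 (0.20) and Pfkfb3 (0.59) went from negative to positive, among others, and Ankrd37 (-0.21) and Hk1 (-0.14) from positive to negative, among others. VAS + H2O and IMQ + H2O do not overlap in those markers, so imiquimod and carryover cannot be told apart in that fit. With the neutrophil and monocyte markers as the covariate, an alternative added once the data had been seen, 14 genes passed and Car9, Slc16a3, Car12, Pfkl, Pfkm, Adm, Vegfa and Gpi1 did not. Of these, Car9 had a log2 fold change of 1.62, Car12 1.002, Pfkl 0.93, Vegfa 1.01, Pfkm -0.65 and Gpi1 0.36, while Slc16a3 went from 2.40 to 1.17 and Adm from 1.73 to 1.16. Among the 14 that passed, it was smaller than without the covariate for Hif1a (0.81), Gapdh (1.02) and Slc2a1 (0.80), among others. It was larger for Hk2 (1.42), Egln3 (0.89) and Egln1 (0.70). The mean log2 CPM of the neutrophil and monocyte markers, which entered the fit, did not overlap between these groups. It was -1.06, -0.74 and -0.88 in VAS + H2O and -0.47, -0.24 and 2.54 in IMQ + H2O. Imiquimod and these markers therefore cannot be told apart in that fit either. IMQ + H2O replicate 3 and IMQ + XYF replicate 1 also held the highest levels of Hif1a, Slc2a1, Gapdh, Pgk1, Pgam1, Tpi1, Aldoa and Vegfa. The glycolytic enzymes and the proliferation markers were both higher in the imiquimod groups than in VAS + H2O. Within VAS + H2O the proliferation markers summed to 177, 425 and 517 CPM, where the enzymes held 0.273%, 0.256% and 0.285% of normalized counts. The part of cell division in the rise of the enzymes was not tested.

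The second comparison, IMQ + XYF against IMQ + H2O, asked whether XYF changed these genes in imiquimod-treated epidermis. None of the 37 rows passed, with edgeR or with DESeq2, and 0 had an unadjusted p under 0.05, against 5.43% of the 17793 genes tested. Over all genes, 5 passed with edgeR (0.0281%). The log2 fold changes of the rows ran from -0.27 for Slc16a3 to 0.68 for the sparse second Aldoa identifier, with a median of -0.07 against 0.00 over all genes. The smallest adjusted p was that of Egln1 (log2 fold change -0.15, SE 0.07, adjusted p = 0.979). All XYF libraries lay below all IMQ + H2O libraries for Egln1 and Pfkp, as for 4.67% of all genes, and the reverse held for 0 rows, against 5.99% of all genes.

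For the enzymes the intervals were narrow. The 95% interval of the log2 fold change was -0.26 to 0.41 for Pgk1, -0.37 to 0.17 for Eno1, -0.43 to 0.34 for Gapdh, -0.34 to 0.17 for Pkm and -0.30 to 0.24 for Ldha. A return to the VAS + H2O level would have needed a log2 fold change below -1 for each of these 5 genes, which lies outside each interval. For Slc2a1 the interval was -0.54 to 0.29, for Hk2 -0.23 to 0.65 and for Hif1a -0.45 to 0.47. The interval was wide for Slc2a3 (-2.11 to 1.86), Slc16a3 (-1.62 to 1.08) and Adm (-1.09 to 0.83). A 2-fold lower level with XYF lay within each of these.

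The direction of these 3 genes rested on single libraries. Without IMQ + H2O replicate 3 the log2 fold changes were 1.29 for Slc2a3, 0.63 for Slc16a3 and 0.25 for Adm. Without IMQ + XYF replicate 1 they were -0.94, -0.71 and -0.62. With both left out, an alternative added once the data had been seen, 0 of the 37 rows passed. In that fit 5 had an unadjusted p under 0.05, against 7.92% of all genes, all lower with XYF, namely Egln3 (-0.32), Aldoc (-0.35), Pdk1 (-0.28), Ndrg1 (-0.29) and P4ha2 (-0.41), with adjusted p of 0.549 to 0.621.

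The third comparison, IMQ + XYF against VAS + H2O, shares its VAS + H2O libraries with the first, so the values are set side by side and the similarity is no separate evidence. Of the 37 rows, 21 rose and 3 fell, against 28.7% of the 17954 genes tested that changed, 16.7% upwards and 12% downwards. DEG numbered 13, all higher, against 4.58% of all genes, and the median log2 fold change was 0.79 against -0.04 over all genes. The groups did not overlap for 22 rows that lay higher and 4 that lay lower with IMQ + XYF, against 25.1% and 22.4% of all genes. All 6 enzymes of lower glycolysis rose again. The log2 fold change of Pgk1 was 1.55 with XYF and 1.47 with water, that of Eno1 1.16 and 1.25, that of Ldha 1.16 and 1.18, and that of Hk2 1.33 and 1.12.

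Among hypoxia genes, Hif1a had a log2 fold change of 1.23 (adjusted p = 0.000975), Vegfa 1.14 (0.00384), Car9 1.65 (0.00905), Slc16a3 2.14 (0.00458) and Adm 1.60 (0.0243). Of the 10 hypoxia targets outside glycolysis, 4 rose, 1 fell and 5 did not pass, namely Bnip3, Ndrg1, P4ha1, P4ha2 and Ankrd37. All IMQ + XYF libraries lay below all VAS + H2O libraries for P4ha2, as for 22.4% of all genes. Slc2a1 rose by 0.97 (0.00163), and Slc2a3 just missed the threshold (log2 fold change 1.84, SE 0.57, adjusted p = 0.0517) although its groups did not overlap. It passed with DESeq2 (adjusted p = 0.00412), which called 30.5% of all genes here, with at least 10 counts required in every library (adjusted p = 0.0441) and without IMQ + XYF replicate 2 (adjusted p = 0.0282). The genes that fell were Pfkm (log2 fold change -0.63, SE 0.15, adjusted p = 0.0216), Pdk1 (log2 fold change -0.37, SE 0.09, adjusted p = 0.0235) and Ddit4 (log2 fold change -0.99, SE 0.30, adjusted p = 0.0471). Ddit4 had a log2 fold change of -0.58 without VAS + H2O replicate 2, with an adjusted p of 0.0505.

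Of the 24 calls, 18 passed in each fit with 1 library left out. Egln3 did not pass without VAS + H2O replicate 3 or without any 1 of the IMQ + XYF libraries (adjusted p = 0.0627 to 0.083), and Pfkm not without IMQ + XYF replicate 1 or 3 (0.0802 and 0.0785). Car12 passed only without VAS + H2O replicate 3 among those fits (0.0516 to 0.0717 in the others), and Ddit4 only without VAS + H2O replicate 1 (0.0505 to 0.139 in the others). Pdk1 was lost without VAS + H2O replicate 1 or 2 or IMQ + XYF replicate 2 or 3 (0.0575 to 0.0813), and Adm without VAS + H2O replicate 1 or 3 or IMQ + XYF replicate 1 (0.0681, 0.0535 and 0.0513). P4ha2 passed without IMQ + XYF replicate 1 (log2 fold change -0.59, adjusted p = 0.0421) and Hk1 without VAS + H2O replicate 1 (0.52, adjusted p = 0.0259). With the neutrophil and monocyte markers as a covariate, likewise added later, 0 of the 37 rows passed. Of the 24 called genes 23 kept their direction and Adm did not, and the median log2 fold change was 0.93. That of Pgk1 was 1.57, of Hk2 1.72 and of Ldha 1.06. It was smaller than without the covariate for Car9 (0.80) and Slc16a3 (0.92), among others, and larger for Car12 (1.87), among others. The IMQ + XYF and VAS + H2O libraries do not overlap in those markers, so the treatment and the markers cannot be told apart in that fit. With the cartilage and dermal fibroblast markers as the covariate, 20 of the 24 genes passed and Egln3, Car12, Pdk1 and Ddit4 did not. The median log2 fold change of the 24 was 1.01, and that of Pgk1 was 1.49, of Hk2 1.32 and of Ldha 1.11. The mean log2 CPM of those markers, which entered the fit, overlapped between these groups, at 2.59 to 3.44 in IMQ + XYF and 3.03 to 4.97 in VAS + H2O.

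**Figure D5:**
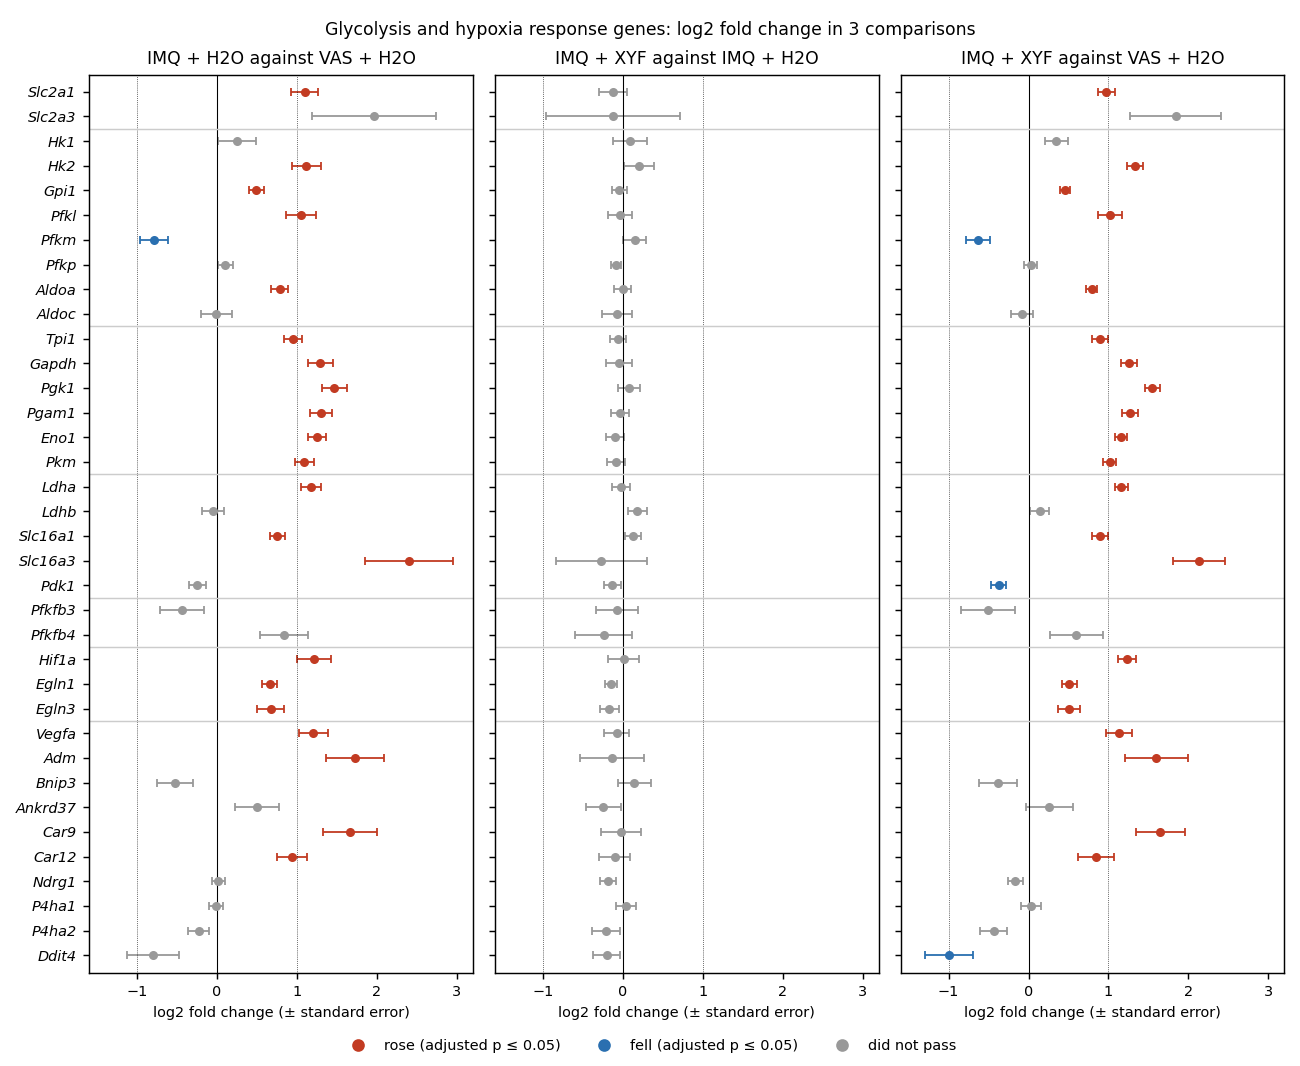
Log2 fold change with its standard error for the 36 genes, ordered by role, in the 3 comparisons of 2 groups of 3 libraries. Red and blue mark genes that rose or fell at an adjusted p of at most 0.05 and grey those that did not pass; dotted lines mark a log2 fold change of 1 in either direction. In the left and right panels 21 genes are red, and in the middle panel all are grey.

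Other genes of these pathways were called in both directions. Of 47 further genes of glycolysis, pyruvate, glycogen and the pentose phosphate pathway that could be tested, 8 rose (17.0%) and 11 fell (23.4%) in IMQ + H2O against VAS + H2O, where 12.7% of all genes rose and 9.41% fell. Of 58 further hypoxia response genes, 11 rose and 11 fell (19.0% each). For IMQ + XYF against VAS + H2O, where 16.7% of all genes rose and 12% fell, 10 of the 47 rose (21.3%) and 8 fell (17.0%), and 11 of the 58 rose (19.0%) and 14 fell (24.1%). Nothing particular to these lists is read from these shares. For IMQ + XYF against IMQ + H2O none of the 47 and none of 60 passed with edgeR. With DESeq2 1 did, Gfpt2, an enzyme of the hexosamine pathway (log2 fold change 1.37, SE 0.32, adjusted p = 0.00309), which is named here after its value was seen.

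The genes with the smallest adjusted p against VAS + H2O included the hypoxia genes Angptl4, Tfrc and Fam162a. Angptl4, a secreted inhibitor of lipoprotein lipase, had a log2 fold change of 3.11 with water and 2.99 with XYF (adjusted p = 0.00194 and 0.000852). Fam162a, a mitochondrial protein that responds to hypoxia, rose by 1.88 and 1.78 (0.00575 and 0.000652), and Tfrc, the transferrin receptor, by 0.97 and 1.08 (0.00525 and 0.000374). Jmjd6 rose by 0.65 and 0.59 (0.0122 and 0.00298). Pgd, of the pentose phosphate pathway, rose by 0.53 in IMQ + H2O (0.00927).

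Lower genes included Vldlr, a lipoprotein receptor, at -0.95 and -0.82 (adjusted p = 0.00903 and 0.00204), and Zfp395 at -0.98 and -1.04 (0.0105 and 0.00156). Arnt2, a partner subunit of HIF, fell by 1.09 with water (0.0118). With XYF, Pfkfb2, a further regulator of phosphofructokinase, had a log2 fold change of -0.79 (0.00148) and Pdgfb, a growth factor, -0.77 (0.00216). The pathway counts for IMQ + H2O against VAS + H2O fell to between 14 and 34 genes when 1 library was left out.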

How the data were processed

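The authors deposited whole-number counts per gene, with 1 column per library and no normalization. Per the study's methods and the submitters' processing notes, TruSeq libraries were sequenced on a HiSeq instrument, checked with FastQC and aligned with STAR 2.5 to GRCm38 with Ensembl annotation. StringTie, Cuffnorm and DESeq 1.22.1 are also named. The counting tool, strand setting and handling of reads that map more than once are not given in the sources used here, so near-identical copies may share reads.

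The quasi-likelihood test of edgeR 4.0.16 (R 4.3.3; TMM, filterByExpr at default) was run separately on the 6 libraries of each comparison, with Benjamini-Hochberg adjustment across every gene tested. A gene rose or fell at an adjusted p of at most 0.05, and a DEG also changed by at least 1 on the log2 scale. Intervals of fold changes use the test's own degrees of freedom. CPM used TMM factors over 18492 genes. Positions and exon lengths came from GENCODE (GRCm38), where all 37 rows matched, and promoters from RefSeq GRCm38.p6. The fits were tested on simulated data.

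All 36 genes are named. Of the pathway lists, up to 8 genes per comparison with the smallest adjusted p are named. Members and lists were chosen with earlier results of these data known. No library was left out of the main fits. Alternatives were DESeq2 1.42.0, RLE size factors, other count filters, 1 fit of all 9 libraries, the replicate number as a block, marker covariates and each library left out in turn. With 3 libraries per group, an exact permutation test of a single value cannot go below p = 0.1, so none is given.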

Additional observations from a re-analysis of the deposited data

How the results depend on the processing

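DESeq2, RLE size factors, either count filter and 1 fit of all 9 libraries kept the number of changed genes at 22 to 25 for IMQ + H2O against VAS + H2O and at 23 to 25 for IMQ + XYF against VAS + H2O, and every called gene kept its direction in them. DESeq2 added Ddit4, Slc2a3 and Pfkfb4 in the former and Slc2a3 in the latter. With 1 library left out the numbers were 16 to 22 (DEG 10 to 17) and 19 to 22 (DEG 11 to 15), and 0 in IMQ + XYF against IMQ + H2O. Pathway genes changed numbered 41 in IMQ + H2O against VAS + H2O, and 14 to 34 with 1 library left out. In IMQ + XYF against IMQ + H2O they numbered 0 with edgeR and 1 with DESeq2.

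With the cartilage and dermal fibroblast covariate, 0 members, 0 DEG and 0 pathway genes passed in IMQ + H2O against VAS + H2O, where 0 of all genes did. With the neutrophil and monocyte covariate, added after seeing the data, 14 members, 6 DEG and 6 pathway genes passed there, and 0 members, 0 DEG and 0 pathway genes in IMQ + XYF against VAS + H2O, where 23 of all genes did. Adm reversed in the latter fit, to a log2 fold change of -0.15 (adjusted p = 0.949 with edgeR). The cause was not tested. In these fits the covariate does not overlap between the groups, so the 2 cannot be told apart. With the cartilage and dermal fibroblast covariate 20 members passed in IMQ + XYF against VAS + H2O, where it overlaps.

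Replicate numbers recur in the groups, but libraries of the same number did not deviate together (correlations of -0.13 to 0.11), so they were not taken as pairs. With the replicate block 20 members passed in IMQ + H2O against VAS + H2O, without Car9 and Slc16a3, 21 in IMQ + XYF against VAS + H2O, without Car12, Ddit4 and Adm, and 0 in IMQ + XYF against IMQ + H2O. Depth limits the second Aldoa identifier, at 2 to 32 counts, and Slc2a3 and Car9, at about 1 CPM in VAS + H2O.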
